A study of Homo sapiens with 16 samples.

Results

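A set of 10 genes of the podocyte's slit diaphragm and foot processes were followed through kidney organoids by culture day, by TNFα treatment and by cell type. They were taken by name: NPHS1, CD2AP, FYN, MAGI2 and TJP1 for the slit diaphragm and its anchoring, and PODXL, PTPRO, SYNPO, CLIC5 and PLCE1 for the apical surface, the foot process and its signalling. The 10 genes were all listed in each of the 3 bulk RNA tables, which hold 28261 genes between them, and in the single-cell matrices of 36601 genes, so none was lost to a filter on low values. Another 37 genes of the same structures, 18 of the slit diaphragm and 19 of the foot process, were read beside them as companions.

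All organoids were grown from UM77-2, a human embryonic stem cell line, so they are 1 genetic background. The bulk RNA came from isolated spheroids, whereas the single-cell libraries came from whole wells scraped and dissociated, so the kinds of library hold unlike material. Set 1 held 1 bulk library each from day 21 (D21), day 25 (D25) and day 29 (D29), and set 2 held 2 libraries from each of the same days, with daily refeeding from day 17. The TNFα set held organoids collected on day 25 after vehicle (VC) or 5 ng/ml TNFα for 24 h or 48 h, 1 library each, and the single-cell libraries were a day 24 control and a day 24 culture given 5 ng/ml TNFα for 24 h, 1 each. A further single-cell sample of day 25 was not analysed here. The labels do not say whether the libraries of 1 day came from separate cultures, so p-values measure the spread between these libraries, which may be technical.

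Podocytes are epithelial cells that wrap the capillaries of the glomerulus with interlocking foot processes, and the slit diaphragm is the modified cell junction that bridges neighbouring foot processes and forms part of the filtration barrier. Nephrin and its partners span the gap, scaffold proteins tie them to the actin skeleton inside, and a coat of charged sialoproteins on the apical side keeps the processes apart. Mutations in several of these genes cause inherited nephrotic syndrome. Loss of foot process shape, called effacement, accompanies protein leak into the urine.

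Bulk libraries held from 19073609 to 59246286 reads. Bulk values are log2(CPM + 1), where CPM is a gene's read count scaled to the size of its library. The D29 libraries of set 2 stood apart from each other: replicate 1 exceeded replicate 2 in 10 of the 10 genes, by 0.23 (FYN) to 1.25 (CLIC5) with a median of 0.92, whereas the replicates of D21 and D25 differed by a median of 0.06 and 0.04. The difference between D29 and D21 of each member but FYN is therefore given with and without replicate 2. For FYN the range over the alternative analyses is given. The results of companions and cell type markers rest on both D29 libraries and were not read without replicate 2. Podocyte markers were read in all bulk libraries: 12 outside the members, such as the transcription factors WT1 and LMX1B, were all listed with none at 0 reads. Their summed level ranged from 1619 to 4868 CPM. The neuronal and endothelial markers also had none at 0 reads, so this does not by itself show podocyte identity.

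NPHS1 had the largest difference and CD2AP the smallest between D21 and D29 in set 2, and the bases before their start sites are shown for that reason. The order was another one in set 1, with TNFα and in single cells. They are the 250 bases upstream of the RefSeq transcript start on GRCh38.p14, for NPHS1 at chr19:35852505-35852754 on the minus strand and for CD2AP at chr6:47477539-47477788 on the plus strand, and capitals mark CANNTG, a pattern that reads the same on both strands.
NPHS1: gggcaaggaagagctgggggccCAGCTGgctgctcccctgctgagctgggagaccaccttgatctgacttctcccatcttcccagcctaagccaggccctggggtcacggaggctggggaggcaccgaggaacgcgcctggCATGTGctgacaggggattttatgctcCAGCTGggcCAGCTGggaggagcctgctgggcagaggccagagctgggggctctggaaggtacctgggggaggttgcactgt
CD2AP: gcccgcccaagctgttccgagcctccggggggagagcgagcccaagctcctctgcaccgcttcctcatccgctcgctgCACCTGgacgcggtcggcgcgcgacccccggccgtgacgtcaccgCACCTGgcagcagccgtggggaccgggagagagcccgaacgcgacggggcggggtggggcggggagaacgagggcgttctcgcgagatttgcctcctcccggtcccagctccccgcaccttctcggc
The NPHS1 window, read with the first 50 bases of the transcript, held 4 CANNTG, as many or more than which were held by 5.58% of 35116 promoter windows of the same 300 bases, and it held 4 CpG against a median of 14. The CD2AP window held 2 CANNTG, a number reached by 36.4% of promoter windows, and 35 CpG. CANNTG is a short pattern found at least once in 68.7% of the windows, and a match describes these letters only. Of the 10 genes, 9 had an entry in the promoter table, and PODXL did not.

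Compared per kilobase of exon, the members spanned a wide range of abundance. In the D21 libraries of set 2, PODXL, which encodes podocalyxin, the major apical sialoprotein of the podocyte, was highest at 648 and 673 CPM per kb. NPHS1 followed at 173 and 183 CPM per kb, then CLIC5, TJP1, SYNPO, PTPRO, FYN, MAGI2, CD2AP and PLCE1, the last at 5.71 and 5.79. The libraries separated each neighbour in this order except SYNPO from PTPRO and MAGI2 from CD2AP, whose ranges overlapped. In the vehicle libraries of the TNFα set the order again began with PODXL, NPHS1 and CLIC5 and ended with PLCE1, and PTPRO and SYNPO were again not separated. Exon lengths were the union of annotated exons, so a gene expressed from a short isoform reads lower on this scale.

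NPHS1 (ENSG00000161270, chromosome 19, 35825372 to 35869287, minus strand, GRCh38) encodes nephrin, the adhesion protein whose extracellular part spans the slit. It was at 10.18 and 10.27 log2(CPM + 1) in the D21 libraries of set 2, at 9.53 and 9.49 at D25, and at 8.90 and 7.75 at D29. The 3 days did not overlap, and each later day was lower than the one before. From D21 to D29 NPHS1 fell by 1.90 on the log2 scale (SE 0.30), 3.73-fold lower, with an adjusted p of 0.00413 in limma. Without D29 replicate 2 the fall was 1.32. NPHS1 passed in 13 of 13 alternative analyses, among them fits with 1 library left on a day, whose spread comes from the other days.

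FYN (ENSG00000010810) encodes the Src family kinase that phosphorylates the tail of nephrin. Its levels were 8.10 and 8.33 at D21, 7.81 and 7.88 at D25, and 7.62 and 7.39 at D29, again without overlap between the days. From D21 to D29 FYN fell by 0.71 (SE 0.10, adjusted p 0.00284 in limma), a smaller drop than that of NPHS1 but with a smaller error, and it too passed in 13 of 13 alternatives. It was the only member besides NPHS1 to do so, and over those alternatives its difference ran from -0.83 to -0.60.

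MAGI2 (ENSG00000187391), a scaffold protein of the slit diaphragm's inner face, was at 9.08 and 9.02 at D21, 8.78 and 8.74 at D25, and 8.50 and 7.62 at D29. TJP1 (ENSG00000104067), which encodes the junction scaffold ZO-1, was at 9.81 and 9.82, then 9.49 and 9.47, then 9.28 and 8.40. Both were lower at D29 in each library than in any D21 library. MAGI2 fell by 0.99 (SE 0.23, adjusted p 0.0229 in limma) and TJP1 fell by 0.97 (SE 0.24, adjusted p 0.0249 in limma). Without D29 replicate 2 the falls were 0.55 and 0.54.

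CD2AP (ENSG00000198087) encodes an adaptor that links nephrin to actin, and it was the exception. Its levels were 6.75 and 6.63 at D21, 6.80 and 6.74 at D25, and 6.72 and 6.13 at D29. Only D29 replicate 2 stood below the other 5 libraries, and the D21 and D29 groups overlapped. The difference between D29 and D21 was -0.26 (SE 0.16, adjusted p 0.328 in limma), and it was 0.03 without D29 replicate 2.

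PODXL (ENSG00000128567) was at 12.12 and 12.18 at D21, 11.92 and 11.95 at D25, and 11.76 and 10.65 at D29. PTPRO (ENSG00000151490), a receptor tyrosine phosphatase of the podocyte's apical membrane, was at 10.42 and 10.39, then 10.15 and 10.12, then 9.96 and 8.80. In both genes every D29 library was below every D21 library, but the D29 libraries lay over 1 log2 unit apart. The differences between D29 and D21 were -0.95 for PODXL (SE 0.32, adjusted p 0.0792 in limma) and -1.02 for PTPRO (SE 0.31, adjusted p 0.0555 in limma), and neither passed. Without D29 replicate 2 the difference of PTPRO was -0.44 and that of PODXL was -0.39.

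SYNPO (ENSG00000171992) encodes synaptopodin, which bundles actin in the foot process, and CLIC5 (ENSG00000112782) encodes a protein that couples podocalyxin and ezrin to the actin skeleton. SYNPO was at 9.34 and 9.51 at D21, 9.25 and 9.46 at D25, and 9.04 and 8.21 at D29, so that D21 and D25 overlapped while D29 was below both. CLIC5 was at 9.87 and 9.90, then 9.63 and 9.67, then 9.36 and 8.10. From D21 to D29, CLIC5 fell by 1.15 (SE 0.33, adjusted p 0.0458 in limma) and SYNPO fell by 0.80 (SE 0.23, adjusted p 0.0489 in limma), both close to the threshold. Without D29 replicate 2, the fall of CLIC5 was 0.53 and the difference of SYNPO was -0.39.

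PLCE1 (ENSG00000138193), a phospholipase C needed for podocyte maturation, was the least abundant member per kilobase of exon. It was at 7.31 and 7.29 at D21, 7.20 and 7.18 at D25, and 7.13 and 6.18 at D29. The difference between D29 and D21 was -0.64 (SE 0.25, adjusted p 0.118 in limma), and without D29 replicate 2 it was -0.17.

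**Figure D1:**
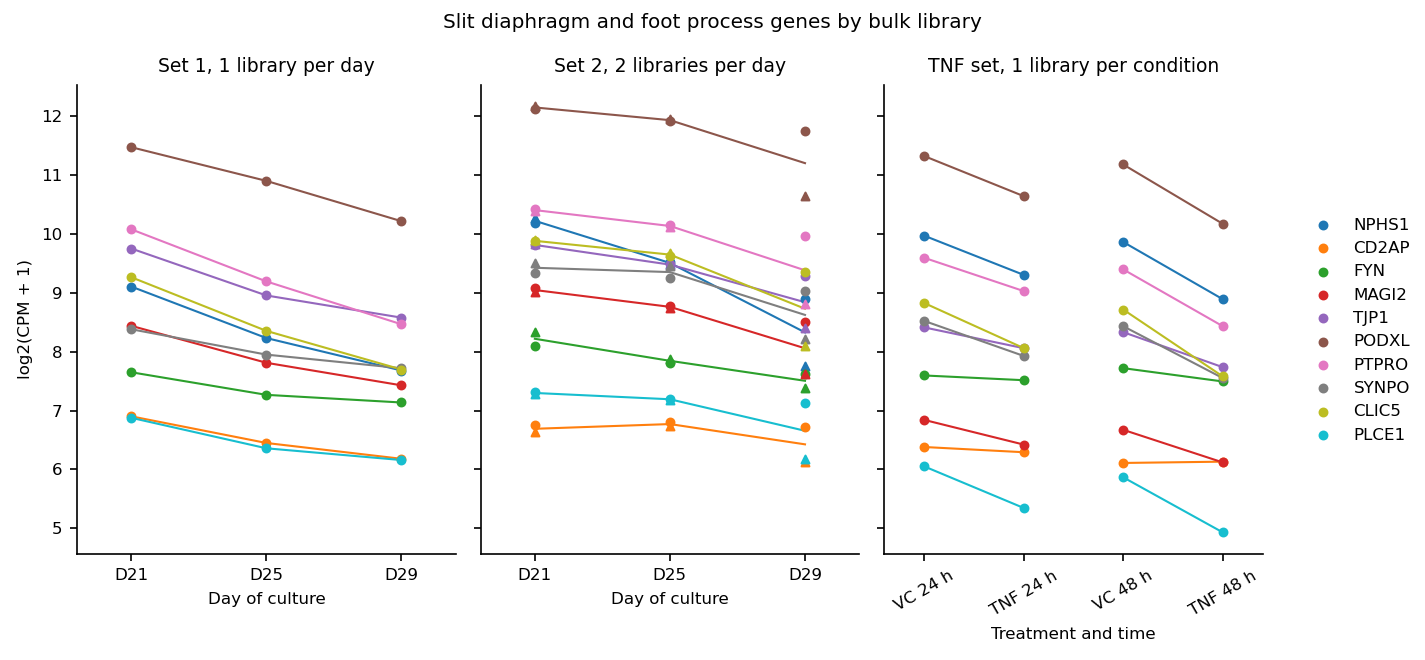
Level of each of the 10 genes in every bulk library, as log2(CPM + 1) on the vertical axis, in 3 panels for set 1 by day, set 2 by day and the TNFα set by treatment and time; circles are replicate 1, triangles replicate 2, and lines join means. In set 2 the replicates of D21 and D25 nearly coincide, with a median gap of 0.06 and 0.04, while those of D29 are a median of 0.92 apart.

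Read together, 6 of the 10 members fell from D21 to D29 in set 2, where 8.33% of all 27650 genes were called lower, and none rose, where 10.0% of all genes were called higher. In 9 of 10 members the D21 and D29 libraries did not overlap, CD2AP being the exception. How many of all genes were without overlap was not counted. The median difference of the members was -0.96, against -0.02 over all genes. Without D29 replicate 2, NPHS1 fell by 1.32 and all members but CD2AP were still lower. Without D29 replicate 1, which leaves the lower library as the only D29 value, NPHS1 fell by 2.47. Both fits take their spread from D21 and D25 and assume that D29 varies like them, so their calls are not given here. When either one of the D21 libraries was left out, only NPHS1 and FYN were called, where 3.49% or 3.47% of all genes were called lower. When either one of the D25 libraries was left out 3 members were called, where 6.86% or 6.89% of all genes were.

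Neither step on its own passed the test. The fit shared 1 spread over all 3 days, so the error of each step also took in the gap between the D29 libraries. For NPHS1 the SE was 0.30 at each step. Its replicates had a standard deviation of 0.06 at D21, 0.03 at D25 and 0.81 at D29. From D21 to D25, 0 members were called in limma, where 1.99% of all genes were called lower. The median of the members was -0.25. An unadjusted p under 0.05 in limma was reached by 2 members, NPHS1 with a difference of -0.72 and FYN with -0.38. It was reached by 5239 of 27650 genes in either direction, a like share. From D25 to D29, 0 members were called in limma, where 0.825% of all genes were called lower. In both D29 libraries 10 of 10 members were lower than in both D25 libraries, with a median of -0.72, and this was not counted over all genes. An unadjusted p under 0.05 in limma was reached by 7 members, and by 4820 of 27650 genes in either direction. For D25 against D21 and D29 against D25, 0 and 1 members were called in edgeR, where 2.45% and 1.82% of all genes were called lower. In DESeq2 1 and 0 were called, where 3.17% and 2.39% of the genes tested were. When either D29 library was left out, 4 members were called between D21 and D25, where 3.24% of all genes were called lower. Between D25 and D29, NPHS1 fell by 1.76 without D29 replicate 1 and by 0.61 without D29 replicate 2.

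Set 1, with 1 library per day and no test, held the same members in separate libraries. NPHS1 was at 9.11 on D21, 8.23 on D25 and 7.68 on D29, PTPRO at 10.08, 9.19 and 8.47, and CLIC5 at 9.27, 8.35 and 7.70. All 10 members were lower on D25 than on D21 and lower again on D29, which was not counted over all genes. Between D21 and D29, 6 of 10 were lower by at least 1 log2 unit, where 1.41% of 20121 genes were, with a median of -1.09 for the members and -0.00 for all genes. Those 6 were PTPRO (-1.61), CLIC5 (-1.57), NPHS1 (-1.43), PODXL (-1.26), TJP1 (-1.17) and MAGI2 (-1.01). CD2AP was lower by 0.72 here, FYN by 0.51.

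Among the companion genes more were called lower than higher. From D21 to D29, 6 of 18 slit diaphragm companions fell, 2 rose and 10 were not called, with a median of -0.19. Of 19 foot process companions, 9 fell, 1 rose and 9 were not called, with a median of -0.37. Over all genes 8.33% were called lower and 10.0% higher. KIRREL2, a nephrin relative at the slit, fell by 1.55 (SE 0.17, adjusted p 0.000791 in limma), NES, the intermediate filament nestin, by 0.87 and CRB2, a polarity protein of the slit, by 0.81. In the other direction, KIRREL3, another nephrin relative, rose by 1.31 (SE 0.19, adjusted p 0.00297 in limma), KANK2, a regulator of actin and adhesion, rose by 1.05, and TRPC6, the calcium channel of the slit diaphragm, rose by 0.82 (SE 0.10, adjusted p 0.0011 in limma) from a low level. These 3 also occur outside podocytes, and no companion, whether it fell or rose, was read by cell type here.

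Other cell types moved with the days in set 2. Of 12 podocyte markers outside the members, 6 were called lower at D29 than at D21 and 2 higher, and their summed level was 4544 and 4868 CPM at D21 and 3540 and 2009 at D29. Of 10 stromal markers, 8 were called higher (summed 3608 to 4081 CPM at D21, 11079 and 13419 at D29), of 8 neuronal markers 8 higher (408 to 436 CPM, then 750 and 1158), and of 8 mural or contractile markers tested 6 higher. The proximal tubule markers went with the members, 8 of 11 tested being called lower (1002 to 1236 CPM, then 594 and 464). In set 1, with 1 library per day, the neuronal sum went the other way, at 1262 CPM on D21, 1234 on D25 and 1011 on D29. The stromal sum rose there too, from 6311 CPM on D21 to 14673 on D29, and the proximal tubule sum fell from 624 to 496. D29 replicate 2, in which the members were lowest, had the lower podocyte sum and the higher stromal and neuronal sums of that day. In bulk RNA, fewer podocytes and less of these transcripts per podocyte cannot be told apart, and the part of the other cells in the result was not tested.

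TNFα, a cytokine that drives inflammation through its receptors, was compared with vehicle in the TNFα set with treatment time (24 h or 48 h) as a term. Since each treatment and time had 1 library, only an effect shared by 24 h and 48 h could be tested, and the times stood in for replicates. The errors and p-values of this set therefore rest mostly on the spread that limma pools over all genes. They do not measure a spread between replicate cultures. Of the 10 members, 8 fell, where 10.8% of 21093 genes were called lower and 8.42% higher, and none rose. The median of the members was -0.75 against -0.03 over all genes.

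NPHS1 was at 9.97 with vehicle and 9.31 with TNFα at 24 h, and at 9.87 and 8.89 at 48 h. Both TNFα libraries were below both vehicle libraries. NPHS1 fell by 0.82 on the log2 scale (SE 0.07, adjusted p 2.00e-07 in limma), 1.76-fold lower, and the differences at each time were -0.67 and -0.97.

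Of the other slit diaphragm members, MAGI2 was at 6.84 and 6.67 with vehicle and at 6.42 and 6.12 with TNFα, at 24 h and 48 h, and TJP1 at 8.41 and 8.33 with vehicle and at 8.06 and 7.74 with TNFα. Both were lower with TNFα at each time. MAGI2 fell by 0.49 (SE 0.07, adjusted p 2.99e-05 in limma) and TJP1 by 0.47 (SE 0.07, adjusted p 4.67e-05 in limma). The remaining pair did not pass. FYN was at 7.60 and 7.72 with vehicle and 7.52 and 7.49 with TNFα, a difference of -0.15 (SE 0.06, adjusted p 0.105 in limma). CD2AP was at 6.38 and 6.11 with vehicle and 6.29 and 6.13 with TNFα, groups that overlapped, with a difference of -0.03 (SE 0.07, adjusted p 0.802 in limma).

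The members of the apical surface and foot process fell by more than MAGI2 and TJP1 in size, and no test of that difference was made. CLIC5 was at 8.83 and 8.72 with vehicle and at 8.06 and 7.58 with TNFα, and fell by 0.95 (SE 0.08, adjusted p 4.91e-08 in limma). PODXL was at 11.33 and 11.18 with vehicle and at 10.64 and 10.17 with TNFα, and fell by 0.85 (SE 0.08, adjusted p 4.14e-07 in limma). In all 5 genes of this group, both TNFα libraries were below both vehicle libraries, which was not counted over all genes. PTPRO was at 9.60 and 9.40 with vehicle and 9.03 and 8.43 with TNFα, and fell by 0.77 (SE 0.08). SYNPO was at 8.52 and 8.43 with vehicle and 7.93 and 7.55 with TNFα, and fell by 0.74 (SE 0.07). PLCE1, at 6.05 and 5.86 with vehicle and 5.34 and 4.93 with TNFα, fell by 0.82 (SE 0.08), as much as NPHS1 although it was among the members not called by day in set 2. With no term for time, 5 of the 10 members were called, where 3.19% of all genes were called lower, and PTPRO, MAGI2 and TJP1 were not.

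At 24 h, 0 of 10 members were lower by at least 1 log2 unit, where 0.73% of all genes were, and at 48 h 2 of 10 were, PODXL (-1.01) and CLIC5 (-1.14), where 0.754% of all genes were. The median of the members was -0.58 at 24 h and -0.91 at 48 h. In 9 of 10 members, CD2AP being the exception, the difference was larger at 48 h, which was not tested. The vehicle library at 48 h differed from that at 24 h by a median of -0.13 for the members.

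**Figure D2:**
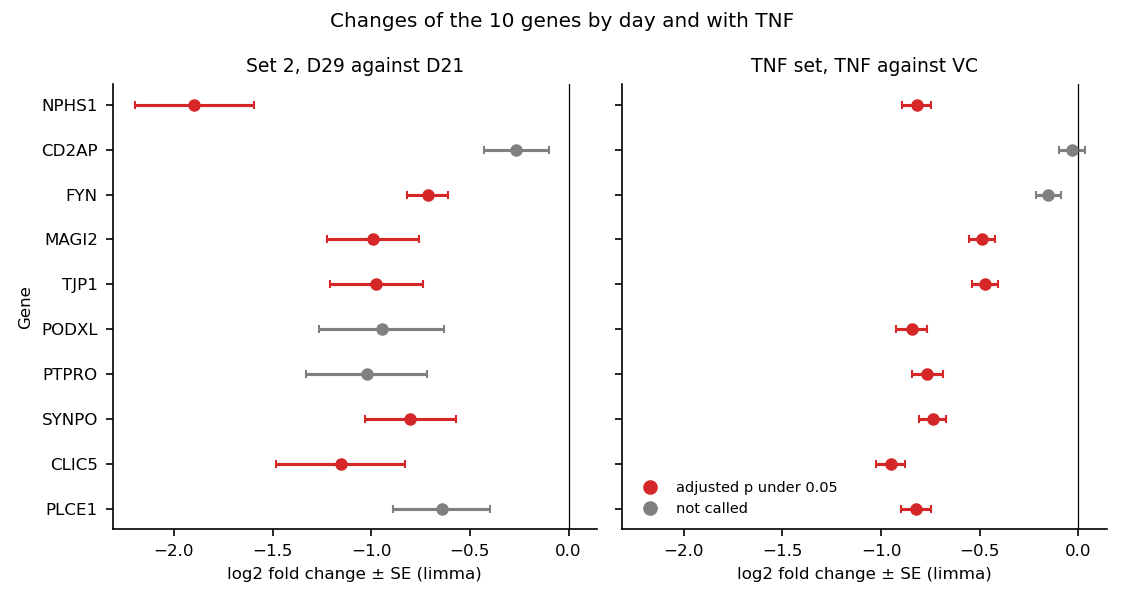
log2 fold change of the 10 genes in limma with its SE as the bar, for D29 against D21 in set 2 (2 libraries per day) and for TNFα against vehicle (4 libraries, time as a term); red points passed an adjusted p of 0.05 and grey points did not. The D29 errors of 0.10 to 0.33 are wider than the TNFα errors of 0.06 to 0.08. The latter rest mostly on spread pooled over all genes, without replicates, so the widths are not alike in kind. CD2AP is nearest 0 in both.

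Companion genes of the foot process fell with TNFα in 9 of 19 cases, none rose and 10 were not called. Of the slit diaphragm companions, 3 of 18 fell, 1 rose and 14 were not called, close to the shares of all genes called lower (10.8%) and higher (8.42%). DDN, which encodes dendrin, a cytoplasmic partner of nephrin and CD2AP, fell by 2.16 (SE 0.14, adjusted p 5.85e-09 in limma), a larger fall than that of any member. NHERF1 and NHERF2, the adaptors that link podocalyxin to ezrin, fell by 0.93 and 0.70. TNS2, a focal adhesion protein, fell by 0.81, and smaller falls were seen for KANK1 (0.40), EZR, which encodes ezrin (0.39), ARHGAP24 (0.38), NES (0.38), KIRREL2 (0.35), PRKCZ (0.21) and INF2 (0.20). CRB2 rose by 0.24 (SE 0.06, adjusted p 0.0113 in limma).

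Cell type markers moved with TNFα as well. Of 12 podocyte markers outside the members, 11 were called lower, with a summed level of 3149 and 3234 CPM with vehicle and 2010 and 2343 CPM with TNFα. Of 11 proximal tubule markers tested, 11 were called lower (summed 1134 and 1138 CPM, then 512 and 572), and of 8 mural or contractile markers tested 6 were called higher. Their part in the result was not tested.

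The single-cell libraries gave the members by cell type. After a filter of over 500 genes per cell there were 11906 cells with a median of 6358.5 UMIs (unique transcript molecules) in the control library and 23160 cells with a median of 2599 UMIs in the TNFα library, in which no cell was below 1514 UMIs, and 82 barcodes occurred in both. Cells were clustered without the members and companions. Cluster 2, with 900 control and 2817 TNFα cells, was called podocyte-like because 9 of 12 podocyte markers were raised in it, WT1, TCF21 and LMX1B among them. Cluster 5, with 543 and 1661 cells, also had 8 of these 12 raised, but its leading genes (TESC, ITIH5, CCN2) held no podocyte marker and included CLDN5 and KRT19 from the endothelial and coelomic lists, so it was left unnamed. Since there was 1 library per condition there is no test, and intervals are exact 95% intervals that cover counting error only.

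Of the 10 members, 8 were highest in podocyte-like cells in both libraries, and NPHS1 and FYN were highest in cluster 5. In the control library, NPHS1 was at 363 CPM (351 to 377) in podocyte-like cells and 414 CPM (398 to 430) in cluster 5, a ratio of 0.879 (0.834 to 0.926), while the lowest named class was at 2.73. In the TNFα library the ratio was 0.946 (0.890 to 1.01), whose interval includes 1. FYN was at 246 CPM in podocyte-like cells and 326 CPM in cluster 5, and its lowest class was at 40.3 CPM, so of the members it varied least between cell types. With each library clustered on its own, or with cells of at least 1000 genes, all 10 members were highest in podocyte-like cells, so the place of NPHS1 and FYN depended on how the cells were divided.

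The members separated podocyte-like cells from cluster 5 to different degrees. In the control library PLCE1 was 3.26 times and CD2AP 3.12 times as high in podocyte-like cells, PTPRO 2.11, CLIC5 1.94, PODXL 1.61, MAGI2 1.53, SYNPO 1.51 and TJP1 1.16 times. Podocyte-like cells held 8.36% of all UMIs of the control library, but 65.6% of the UMIs of PTPRO, 64.9% of CLIC5, 58.8% of PODXL, 54.8% of SYNPO, 47.6% of NPHS1, 46.7% of PLCE1 and 42.7% of CD2AP. The shares of MAGI2, TJP1 and FYN were 33.6%, 32.9% and 19.8%, the lowest of the members. Cluster 5 added a further 41.2% of the NPHS1 UMIs from 6.36% of all UMIs. FYN, a kinase used in many tissues, also stood at 157 CPM in neuronal-like cells, and CD2AP at 60.9 CPM in proximal tubule-like cells.

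**Figure D3:**
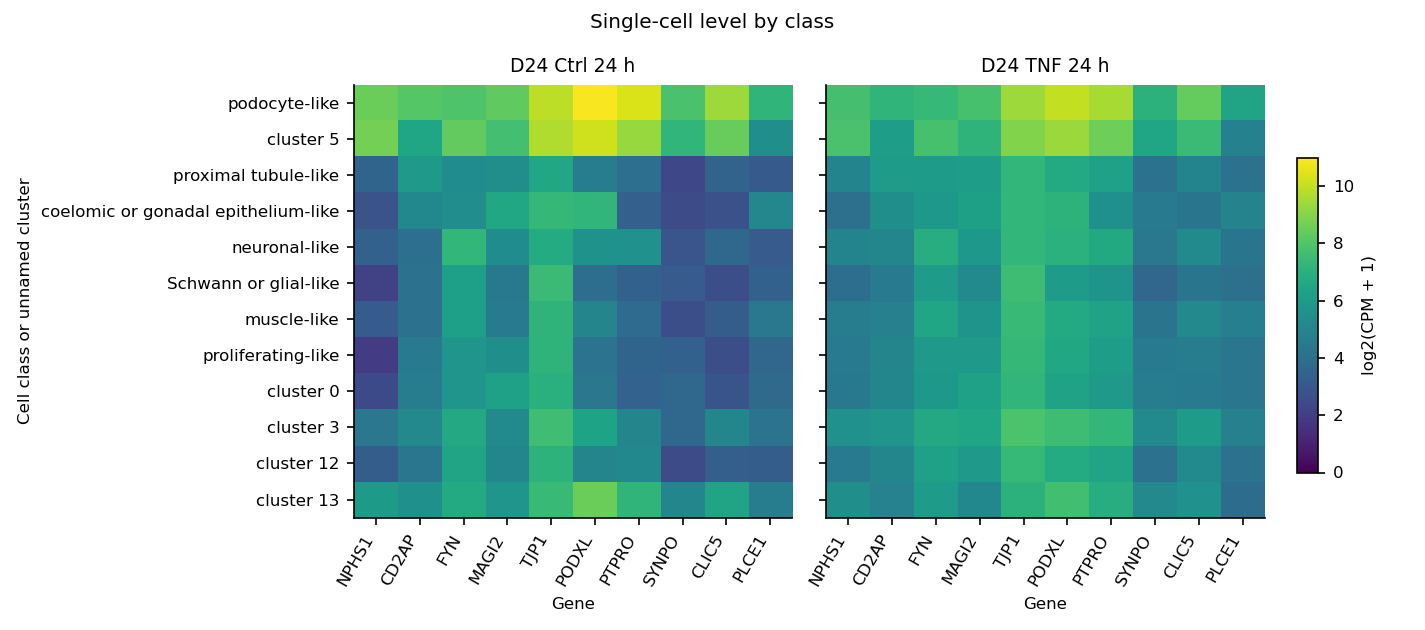
Heat map of log2(CPM + 1) of summed UMIs for the 10 genes in each named class and unnamed cluster, with the control and TNFα libraries side by side; yellow is high and dark blue low, and cluster 14, with 25 cells, is not drawn. PTPRO, CLIC5, PODXL and NPHS1 stand out in podocyte-like cells and cluster 5, whereas TJP1 and FYN are spread over all places.

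Thinned to 1500 UMIs per cell, 43.8% of control podocyte-like cells had a UMI of NPHS1 (389 of 888 cells, 40.5 to 47.1%), against 1.54% of proximal tubule-like cells, a type that should lack nephrin. Unthinned, the shares were 85.4% at a median of 5025 UMIs and 9.23% at a median of 8876. In the TNFα library the thinned shares were 23.6% and 6.38%, and the unthinned 41.7% and 11.2% at medians of 2702 and 2589. The share in proximal tubule-like cells was thus higher in the TNFα library, and the share in podocyte-like cells lower. A thinned control podocyte-like cell showed a median of 5 of the 10 members, and a TNFα cell 3. In the unnamed cluster 5 the medians were close to these, at 4 in control and 2 with TNFα. They were 0 to 1 in the other named classes of either library.

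Within podocyte-like cells all 10 members were lower in the TNFα library, where 58.8% of the 5834 genes with at least 500 UMIs were. NPHS1 was at 363 CPM in control and 214 CPM with TNFα, a ratio of 0.589 (0.558 to 0.622). CLIC5 was at 679 and 332 CPM, a ratio of 0.489 (0.469 to 0.510), the only member at or below a log2 ratio of -1, as were 1.92% of those genes. CD2AP, which did not pass in the bulk comparison, was at 277 and 147 CPM, a ratio of 0.529 (0.497 to 0.564).

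The other members lay in the same range. PODXL had a ratio of 0.536, SYNPO 0.575, PTPRO 0.576, PLCE1 0.589, FYN 0.677, MAGI2 0.696 and TJP1 0.710, where the median log2 ratio of all such genes was -0.07. In podocyte-like cells of this clustering the smallest differences from 1 were thus those of the junction scaffolds TJP1 and MAGI2 and of FYN. In cluster 5 all 10 were lower too, with 62.3% of 4602 genes. Ratios ran there from 0.517 for CLIC5 and 0.547 for NPHS1 to 0.807 for CD2AP, and TJP1 was at 0.581. With each library clustered on its own, TJP1 (0.835) and PTPRO (0.830) were nearest 1 in podocyte-like cells and FYN was at 0.777, so this order depended on the clustering.

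Outside these places most ratios of most members ran the other way. In the 6 other named classes NPHS1 was higher in the TNFα library in 6, with ratios of 2.61 to 8.33, from 9.61 to 30.3 CPM in neuronal-like cells for example. The ratio of 8.33 (4.89 to 15.3) was that of proliferating-like cells and rested on 15 UMIs in control. In the unnamed cluster 13 the ratio of NPHS1 was 0.680. PTPRO and CLIC5 were also higher in 6 of 6, with ratios of 2.16 to 6.36 and 2.90 to 4.46. In cluster 13 their ratios were 0.778 and 0.538. Of all genes with at least 500 UMIs in a class, 43.3% (proximal tubule-like) to 60.6% (neuronal-like) were below 1 in those 6 classes. The muscle-like class was made up differently in each library, with 1031 control and 1060 TNFα cells from cluster 6 and 132 and 1380 from cluster 10. Over whole libraries the members differed little, from a ratio of 0.923 for CLIC5 to 1.15 for SYNPO, and NPHS1 was at 63.9 and 66.8 CPM, while in the bulk TNFα set at the same 24 h NPHS1 was lower by 0.67 log2 units. The bulk set held isolated spheroids and the single-cell libraries whole wells, so these values are set side by side only. Podocyte-like cells made up 7.56% of control and 12.2% of TNFα cells, but 11.9% and 5.59% when each library was clustered on its own, so the direction of that share turned with the clustering.

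Markers of other cells moved with these ratios. The 12 podocyte markers summed to 7210 CPM in control and 3736 CPM in TNFα podocyte-like cells, and to 261 and 537 CPM in proximal tubule-like cells. The proximal tubule markers summed to 654 and 351 CPM in their own class and to 38.2 and 91.3 CPM in podocyte-like cells, and the neuronal markers to 110 and 222 CPM in podocyte-like cells. Both lists were thus lower in their own class and higher in the other in the TNFα library. The TNFα cells were also shallower. The part of these in the members' ratios was not tested. Scrublet marked 339 control cells (2.85%), among them 8.0% of the podocyte-like cells, and 0 cells of the TNFα library, where it did not work, so doublets were kept.

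**Figure D4:**
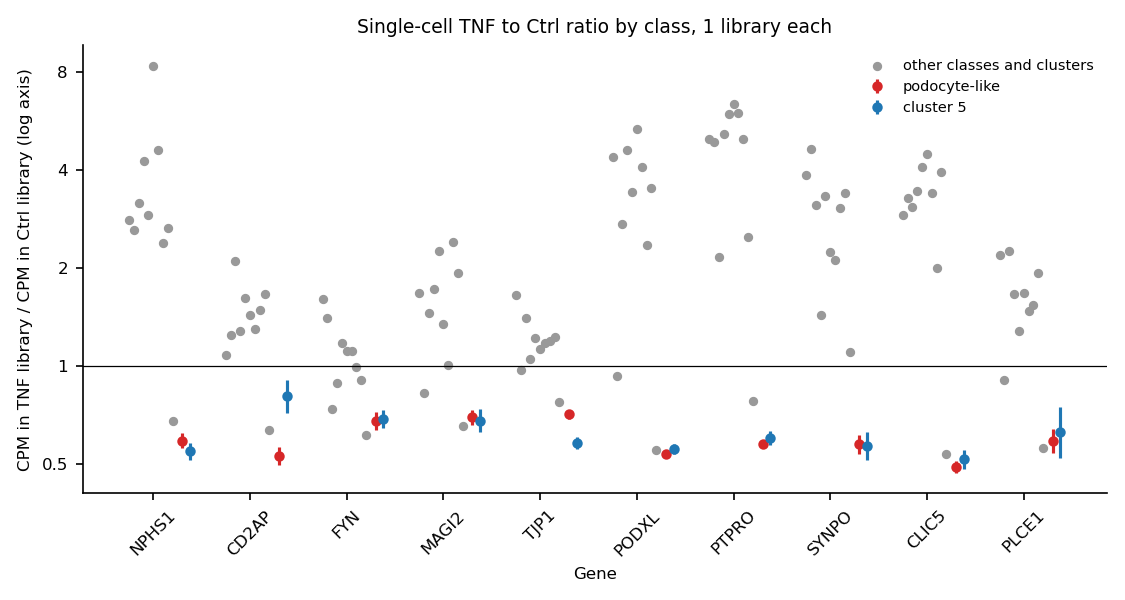
Ratio of CPM in the TNFα library over the control library for the 10 genes on a log axis; red points are podocyte-like cells and blue points cluster 5, with 95% intervals for counting error, and grey points are the other 10 classes and clusters. All red and blue points lie below 1, from 0.489 for CLIC5 to 0.807 for CD2AP, and for NPHS1 the 6 other named classes lie between 2.61 and 8.33. The value of 8.33 rests on 15 control UMIs.

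The genes whose single-cell profile was most like that of 3 members were sought over 28 points, 14 clusters in each of 2 libraries, among 13701 genes. The points share libraries and depth, and the values are descriptions. For NPHS1 the nearest genes outside the lists were SOST (Pearson r 0.98), STON2 (0.97) and FRMD1 (0.97), and CLIC5 was nearest among the members (0.99). For PTPRO they were SOST (0.98), LMX1B (0.96) and SPOCK2 (0.96), the last 2 being among the podocyte markers, and for SYNPO they were MRGPRF (0.97), FRMD1 (0.96) and FOXD1 (0.95). The members least alike were CD2AP and FYN (0.42).

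No source used here gives the strand setting with which the bulk reads were counted, and exons of 4 members overlap opposite-strand genes. NPHS1 shares 107 bases of exon with KIRREL2 and 232 with APLP1, 1.59% and 3.45% of its exon length, CD2AP shares 5.51% with CD2AP-DT, PLCE1 4.32% with PLCE1-AS1, and MAGI2 0.788% with MAGI2-AS3 and 1.47% with a processed pseudogene. Reads in those stretches cannot be assigned to 1 strand.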

How the data were processed

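Bulk RNA of 13 kidney organoid libraries and 2 single-cell libraries were analysed. Bulk reads were aligned by the authors to GRCh38 with STAR 2.7.8a, counted with HTSeq and passed through voom. The deposited values are log2(CPM + 1) with 0.5 added to each count, and undoing this gave whole reads in 100% of cases (largest distance from a whole read 2.21e-08). The added 1 understates changes of low genes. The single-cell UMI counts were deposited by the authors as filtered Cell Ranger 6.0.1 matrices, without normalization. Their genome build is not stated apart from a list of builds.

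Members and gene lists were chosen with earlier results of these data known. In set 2, 1 mean per day was fitted with limma 3.58.1 (R 4.3.3, eBayes with trend, two-sided). In the TNFα set the terms were time and treatment. P-values were adjusted by Benjamini-Hochberg over all genes of a table, with a call at 0.05. As alternatives, the recovered reads were tested with DESeq2 1.42.0 and with the quasi-likelihood test of edgeR 4.0.16 after TMM scaling. On counts simulated with the gene levels and library sizes of set 2, limma called 93 of 100 genes changed by 1 log2 unit. The simulated spread was a set value, the same for all genes and libraries, and was not taken from set 2. It was unlike that of the D29 pair of set 2, and only genes above a low level were changed. This share may therefore not carry over to set 2, and to D29 in particular. Tables were normalized separately, so no level was compared between them.

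Cells with over 500 genes were clustered with scikit-learn 1.9.0 and leidenalg 0.10.2, leaving out the members and companions. The settings were 2000 variable genes per library, 30 components, 20 neighbours and a resolution of 0.25. Libraries were aligned with Harmony as rewritten in numpy, not with its released package. A cluster was named where at least 3 markers of a list were at 20 CPM or more and at least 1 log2 unit above the other cells and its 10 leading genes held no more markers of another list. UMIs were summed per library and class. Named genes were the 10 members, the companions called in either comparison (the 4 largest in each direction by day) and the 3 genes nearest to NPHS1, PTPRO and SYNPO. Gene positions and exon lengths came from GENCODE on GRCh38, promoters from RefSeq. Some genes of these lists are counted with their list but are not reported here.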

Additional observations from a re-analysis of the deposited data

Results flagged for a closer look

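CD2AP differed by -0.0889 log2 units between TNFα and vehicle at 24 h and by 0.0220 at 48 h in bulk, the only member whose direction was not the same at both times. Each value compares 1 library with 1 library, and the difference between the times was not tested.

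In podocyte-like cells the TNFα library had ratios over control of 0.589 for NPHS1, 0.576 for PTPRO and 0.489 for CLIC5, while in every one of the 6 other named classes these genes were above 1. The difference between the classes was not tested, since each condition had 1 library. In the same libraries the summed podocyte markers outside the members were lower with TNFα in podocyte-like cells (7210 to 3736 CPM) and higher in proximal tubule-like cells (261 to 537 CPM).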

How the results depend on the processing

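In set 2 the number of members called lower at D29 than at D21, 6, was 2 with no variance trend, where 7.4% of all genes were. It also moved when 1 library was left out. The number was 8 with edgeR (8.38% of the genes tested were called lower), 4 with DESeq2 (7.44%) and 8 without the added 1 (8.64%). With genes of a mean of at least 1 it was 8 (13.2%), and with median centring 9 (16.9%). Median centring also moved the median of all genes from -0.02 to -0.12 and the calls over all genes from 2303 lower and 2778 higher to 4667 and 2408. For D25 against D21, 0 members became 1 with DESeq2 (3.17% of the genes tested called lower) and 1 with median centring (4.63%), and the count also moved with 1 library left out. For D29 against D25, 0 became 1 with edgeR, where 1.82% of all genes were called lower. It was also 1 with genes of a mean of at least 1 (2.51% of the genes tested) and 1 with median centring (2.05%). With 1 library left out, the count among the 10 members moved there too. For TNFα, 8 became 5 with no time term, where calls over all genes went from 2285 lower and 1776 higher to 673 and 637. DESeq2 called 970 and 1198 there. For D29 against D25, edgeR called 502 lower and 834 higher genes and DESeq2 466 and 812, against 228 and 346 in limma. The causes were not tested.

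Directions reversed in 5 of 460 values of single members, none of them called: CD2AP for D29 against D21, 0.0315 without D29 replicate 2 (from -0.56 to 0.0315 with 1 library left out), SYNPO for D25 against D21, 0.0144 without D21 replicate 2 and 0.0349 without D25 replicate 1 (from -0.18 to 0.0349), and CD2AP with TNFα, 0.0028 in edgeR and 0.0012 in DESeq2. The replicate block gave 7, 0 and 0 members for D29 against D21, D25 against D21 and D29 against D25. There 10.5%, 3.01% and 1.6% of all genes were called lower. Libraries with the same number correlated at 0.14, 0.08 and 0.27 in their deviations, 1 pair under 0.1, so the numbers were not taken as pairs. Of 40 single-cell ratios under other clusterings and filters, 17 moved beyond their counting interval and none reversed, and with each library clustered on its own they ran from 0.701 to 0.835. Not all of these compared like with like. Taking out doublets removed 339 control cells and 0 TNFα cells. Clustered on their own, the libraries had 11.9% (control) and 5.59% (TNFα) podocyte-like cells.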
